A study of Mus musculus with 4 samples.

Results

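Epithelial secreted defence genes are described here across 4 RNA libraries of the mouse uterus. The 10 genes, of 23235 in each deposited table, are the beta-defensins Defb1, Defb5 and Defb6, the lysozyme Lyz1, the siderophore binder Lcn2, the oviduct glycoprotein Ovgp1, the acidic secreted protein Prap1, the lipopolysaccharide receptor Cd14, complement C3 and the immunoglobulin transporter Pigr. They were taken by symbol, and were chosen by the high RPKM of Defb6, Ovgp1 and Lyz1 in luminal epithelium labelled knockout. RPKM is the number of reads scaled to the length of the transcript in kilobases and to the mapped reads of the library. Differences of the 10 genes between the luminal epithelium libraries therefore describe the choice and carry no test.

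The samples were luminal epithelium of genotype Msx1 d/d Msx2 d/d (labelled knockout), luminal epithelium of genotype Msx1 f/f Msx2 f/f (control), stroma labelled knockout and stroma control, with 1 library each. Msx1 and Msx2 encode homeobox transcription factors, and the knockout was described as specific to the uterus. The Cre driver, the exons removed and the age of the animals are not stated in the labels. All females had mated with vasectomized males, so they were pseudopregnant and carried no embryos, and tissue was taken on day 4, when the uterus becomes able to receive a blastocyst. Cells of each compartment were cut out by laser microdissection. The design text speaks of 1 mouse of each genotype. With 1 library per group there was no replicate, and higher or lower below refers to these libraries and not to the genotypes.

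Mucosal epithelia defend their surface with secreted molecules. Defensins are small cationic peptides, held in shape by disulfide bonds between cysteines, that damage microbial membranes. Lysozyme cuts the bacterial cell wall, and lipocalin-2, the product of Lcn2, withholds iron by binding bacterial siderophores. Complement C3 tags microbes for uptake, and the product of Pigr carries IgA across the epithelium into the lumen. In the uterus many epithelial secretions follow the ovarian steroids estrogen and progesterone.

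Depth set how far each level could be read. It was estimated from the spacing of low RPKM values at 90.7 M reads for luminal epithelium labelled knockout, 6.35 M for its control, 62.5 M for stroma labelled knockout and 42.7 M for its control. The luminal epithelium pair thus differed 14.3-fold in depth. These are rough estimates, since 60.4% to 63.5% of low values lay within 0.2 of a whole read, against 40% for values that fall anywhere, and all read numbers and counting limits below rest on them. As a check of the labels, Msx1 was at 13.6 RPKM in luminal epithelium labelled knockout against 23.2 RPKM in control, a ratio of 0.587. Its antisense transcript, Msx1as, was at 2.15 RPKM in luminal epithelium labelled knockout and 39.0 RPKM in control. Use of strand in the counting is not known, so reads of Msx1 and of its antisense transcript may be mixed. Msx2 was at 2.06 RPKM against 1.31 RPKM, and the 95% counting limits of its ratio, 0.983 and 2.61, reached 1. Msx2 RNA was thus not lower in the library labelled knockout, but the exons removed are not stated, so this does not decide the label. The libraries are called by their labels throughout. All 11 luminal epithelial markers, such as Krt8, Epcam and Cdh1, reached 1 RPKM in both luminal epithelium libraries and none did in stroma. Their summed level was 330.2 RPKM in luminal epithelium labelled knockout and 307.7 RPKM in control. The 11 stromal markers were all above 0 in both luminal epithelium libraries and summed to 8.76 RPKM in the library labelled knockout and 15.6 RPKM in control. Of them, 2 and 6 reached 1 RPKM, and Col3a1, a fibrillar collagen, was at 2.25 and 4.76 RPKM. Nr2f2 went the other way, at 3.36 RPKM in luminal epithelium labelled knockout and 2.44 RPKM in control. It was the most abundant of these markers in the library labelled knockout.

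The defensins gave the widest contrast of the 10. Defb6, Defb5 and their neighbours are short genes of similar sequence on chromosome 8, so their sequences are shown first, because length and likeness bear on how their levels can be read. The coding sequences of Defb6 and Defb5 (GENCODE vM21 transcripts, plus strand, stop codon left out) are given below with in-frame cysteine codons in capitals.
Defb6: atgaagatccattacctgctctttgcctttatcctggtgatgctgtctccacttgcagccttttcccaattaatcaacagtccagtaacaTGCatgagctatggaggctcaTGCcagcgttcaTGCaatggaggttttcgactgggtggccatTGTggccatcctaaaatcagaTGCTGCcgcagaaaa
Defb5: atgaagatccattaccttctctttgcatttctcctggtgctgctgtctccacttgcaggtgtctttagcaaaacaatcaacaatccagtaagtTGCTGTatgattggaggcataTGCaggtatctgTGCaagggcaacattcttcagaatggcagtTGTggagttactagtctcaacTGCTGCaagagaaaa
Defb6 has 6 cysteine codons, the last 2 side by side, and Defb5 has 7. The 2 coding sequences were identical at 71.4% of 189 aligned bases.

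Defb6 (chr8:19225478-19228209, mm9) was at 59.4 RPKM in luminal epithelium labelled knockout and was listed at 0 in luminal epithelium control, in stroma labelled knockout and in stroma control. Of all genes in luminal epithelium labelled knockout it ranked 192. Its transcript has 323 bases. Taking 200 bases off for the sequenced fragment, the level stood for 662 estimated reads, and the same level would have given 46.4 reads in the shallow control. No fold is given, because a value listed at 0 can be a failed estimate. Lars2, the mitochondrial leucyl-tRNA synthetase that every cell uses, was at 1156 RPKM in luminal epithelium labelled knockout and also listed at 0 in the other 3 libraries.

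Defb5 (chr8:19247592-19250828, mm9) was at 13.9 RPKM in luminal epithelium labelled knockout and listed at 0 in luminal epithelium control, in stroma labelled knockout and in stroma control. At 207 bases its transcript is about as long as the sequenced fragments, so the number of reads behind it depends on the length taken. It came to 8.80 reads with 200 bases off and to 237 reads with the full length. The control would have shown 0.616 or 16.7 reads at the same level, so with the shorter length a difference from 0 was not detectable at the depth of the control.

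Defb1 (chr8:22887027-22905657, mm9) encodes the constitutive beta-defensin of many epithelia. It was at 0.630 RPKM in luminal epithelium labelled knockout and 0.227 RPKM in control, and listed at 0 in both stroma libraries. The control value amounts to 1 read. The ratio was 2.78, within counting limits of 0.449 and 107.8, so no difference was detectable at this depth.

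The whole family was then read from a list of 43 beta-defensins written with earlier results known. In luminal epithelium labelled knockout 16 of the 43 were above 0, against 3 of 43 in control. All 16 lie on chromosome 8, which holds 23 of the 43. Of all 23235 genes, 16102 were above 0 in the library labelled knockout, which is 14.3-fold deeper, and 13722 in control. Of 95 protein-coding genes with transcripts under 400 bases, 39 were above 0 in luminal epithelium labelled knockout and 24 in control. In both stroma libraries all 43 were listed at 0. Of the 6 that averaged at least 1 RPKM over the luminal epithelium pair, 5 were at least 2-fold higher and none was 2-fold lower, against 5.03% higher and 1.99% lower over all genes kept. These 5 were listed at 0 in control and passed the minimum through the library labelled knockout alone, and Defb6 and Defb5 belong to the genes picked on this contrast, so nothing is read from the count. Beside Defb6 and Defb5 these were Defb3, at 6.53 RPKM against 0, Defb46, at 5.56 RPKM against 0, and Defb14, at 3.44 RPKM against 0. Defb14 was named after its values were seen. Defb2, the remaining one, was at 2.38 RPKM in luminal epithelium labelled knockout and 2.75 RPKM in control. The other 10 defensins above 0 lay between 0.0205 and 0.630 RPKM, levels at which the control would show few or no reads. Among these, Defb11, also named after its values were seen, was higher in control, at 0.356 RPKM against 0.0205 RPKM. At the full transcript length this stood for 0.656 and 0.537 estimated reads. At the full transcript length, the labelled knockout levels of Defb3, Defb46 and Defb14 would have given 10.4, 5.63 and 4.08 reads in control, so their zeros rest on few expected reads. With 200 bases off, Defb3 would have given 3.11 reads and Defb14 0.0874. The 174 bases of Defb46 leave no length to count on. With the shorter length a difference from 0 was thus not detectable for Defb46 and Defb14. Defb6 made up 63.4% of the summed defensin RPKM.

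**Figure D1:**
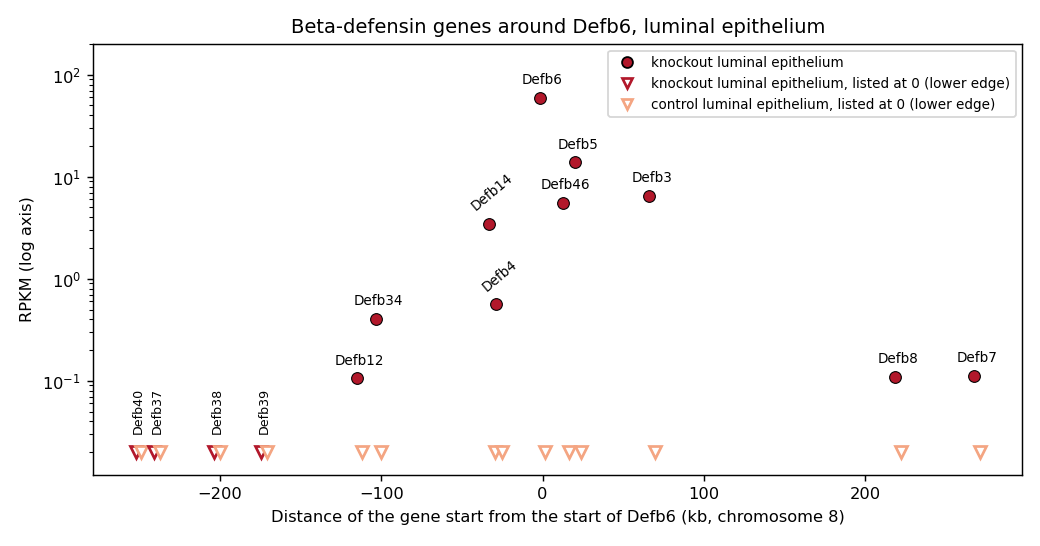
RPKM (log axis) of 14 beta-defensin genes within 300 kb of Defb6, by distance of the gene start from that of Defb6 (kb). Filled circles show luminal epithelium labelled knockout, and open triangles at the lower edge show values listed at 0, in red for labelled knockout and orange for control. The highest levels, from 5.56 to 59.4 RPKM, belong to Defb6, Defb46, Defb5 and Defb3, and control is at 0 for all 14.

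Defb6, Defb46, Defb5 and Defb3, the 4 highest defensins of luminal epithelium labelled knockout, lie within 69.9 kb of chromosome 8, with no other listed defensin among them. Their promoters are shown because the 4 genes lie side by side. RefSeq promoters (GRCm38.p6, plus strand, 300 bases around the gene start) are shown with the stretches of 10 or more bases found in all 4 in capitals.
Defb6, chr8:19225228-19225527: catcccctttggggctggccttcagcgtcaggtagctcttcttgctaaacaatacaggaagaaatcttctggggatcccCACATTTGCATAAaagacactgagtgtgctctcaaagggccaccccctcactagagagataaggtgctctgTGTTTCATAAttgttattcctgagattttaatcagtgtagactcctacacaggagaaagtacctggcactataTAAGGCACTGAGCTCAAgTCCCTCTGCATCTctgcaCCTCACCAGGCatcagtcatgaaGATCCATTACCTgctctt
Defb46, chr8:19239666-19239965: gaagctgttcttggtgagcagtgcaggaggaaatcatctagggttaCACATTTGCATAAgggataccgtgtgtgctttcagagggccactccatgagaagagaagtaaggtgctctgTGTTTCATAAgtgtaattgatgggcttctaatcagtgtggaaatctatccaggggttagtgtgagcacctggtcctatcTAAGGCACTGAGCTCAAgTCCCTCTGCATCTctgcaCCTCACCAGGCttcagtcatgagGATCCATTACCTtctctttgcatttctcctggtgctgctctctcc
Defb5, chr8:19247342-19247641: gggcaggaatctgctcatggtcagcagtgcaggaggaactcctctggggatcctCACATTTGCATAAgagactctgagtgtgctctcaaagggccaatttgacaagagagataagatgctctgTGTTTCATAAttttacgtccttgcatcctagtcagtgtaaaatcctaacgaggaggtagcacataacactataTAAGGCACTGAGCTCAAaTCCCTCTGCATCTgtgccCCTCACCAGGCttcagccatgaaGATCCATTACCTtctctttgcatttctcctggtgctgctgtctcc
Defb3, chr8:19293111-19293410: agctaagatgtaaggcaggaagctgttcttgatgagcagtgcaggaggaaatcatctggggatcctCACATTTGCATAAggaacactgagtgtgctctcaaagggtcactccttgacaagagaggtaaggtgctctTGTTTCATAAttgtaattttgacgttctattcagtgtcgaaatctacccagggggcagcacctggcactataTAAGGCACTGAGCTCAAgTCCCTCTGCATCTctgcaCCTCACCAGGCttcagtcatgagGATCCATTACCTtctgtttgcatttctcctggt
The promoters were identical over 81.3% to 90% of aligned bases, pair by pair, and shared 6 such stretches. The first stretch, which starts 171 bases before Defb6, was found on the gene's strand in these 4 of 32851 RefSeq promoters. The stretch of 17 bases that starts 27 bases before Defb6 was found in 6. The printed bases run past the gene start, so part of this likeness is that of the transcripts. The stretch that starts 9 bases before Defb6 runs across its start. The next begins 9 bases after it, and the last, 32 bases after it, lies in the Defb6 coding sequence printed above.

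Likeness in promoter letters did not go with level in every neighbour. Of 29 beta-defensins with a promoter sequence, 4 held all 6 stretches and 23 held none. Those 4 are the genes the stretches were taken from, so they hold all 6 by construction. The neighbours Defb14, at 3.44 RPKM in luminal epithelium labelled knockout, Defb4, Defb12 and Defb34 were not among the 29. Defb8 held 5 of the 6 and was at 0.110 RPKM in luminal epithelium labelled knockout, and Defb7 held 3 and was at 0.112 RPKM. The transcripts are alike as well, which allows reads to be split between copies. Defb3 and Defb5 were identical over 87.3% of 204 aligned bases, and Defb6 was the most distinct, at 72.3% with Defb3 and 72.5% with Defb5. The longest run Defb6 shared with Defb5 had 18 bases.

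Ovgp1 (chr3:105776720-105790341, mm9) encodes oviductin, a chitinase-like glycoprotein best known as an estrogen-dependent product of the oviduct. It was at 89.2 RPKM in luminal epithelium labelled knockout and 9.24 RPKM in control, 9.65-fold higher, with counting limits of 8.17 and 11.4. Estimated reads were 19535 and 142, so Ovgp1 had the narrowest counting limits of the members at least 2-fold higher. In stroma it was at 0.1004 RPKM in the library labelled knockout and 0.0109 RPKM in control, on 15.1 and 1.12 estimated reads. The ratio there was 9.23, with limits of 1.58 and 431.5.

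**Figure D2:**
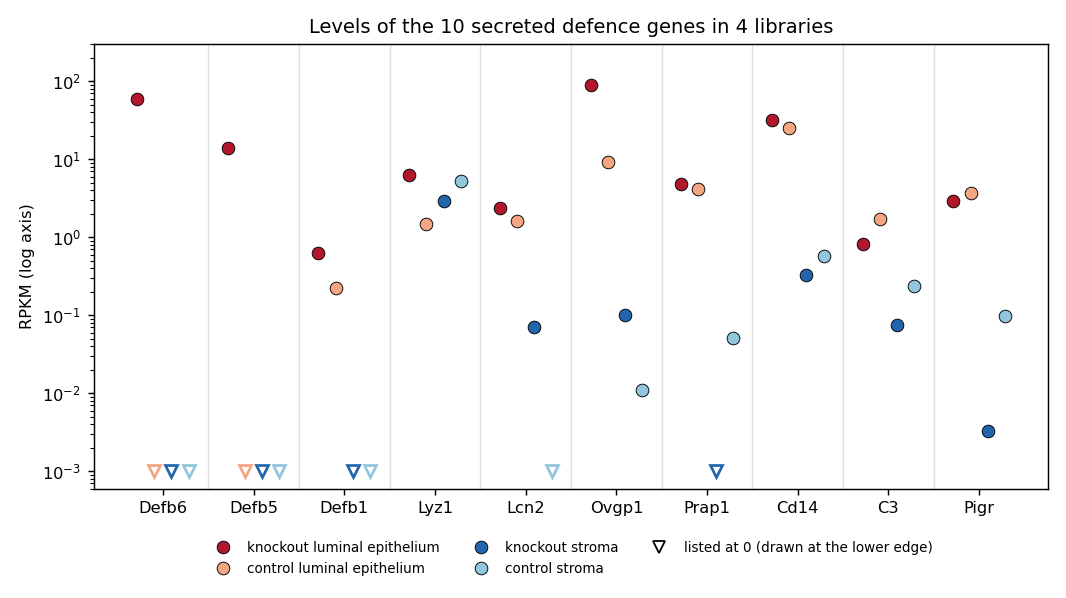
RPKM (log axis) of the 10 genes in each of the 4 libraries, with open triangles in the library's colour at the lower edge for values listed at 0. Red points (luminal epithelium labelled knockout) stand above orange ones (control) for Ovgp1, at 89.2 and 9.24 RPKM, and below them for C3, at 0.827 and 1.72 RPKM. Blue stroma points lie under both, except for Lyz1 and for Defb5 and Defb6, whose control and stroma points all stand at the lower edge.

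The promoter of Ovgp1 (RefSeq, GRCm38.p6, plus strand) is shown because the gene is known as an estrogen-dependent one. Capitals mark AGGTCA, which is a part of an estrogen response element and not the whole element. It is the only copy of AGGTCA on either strand, so no estrogen response element is read from it.
Ovgp1, chr3:105973552-105973851: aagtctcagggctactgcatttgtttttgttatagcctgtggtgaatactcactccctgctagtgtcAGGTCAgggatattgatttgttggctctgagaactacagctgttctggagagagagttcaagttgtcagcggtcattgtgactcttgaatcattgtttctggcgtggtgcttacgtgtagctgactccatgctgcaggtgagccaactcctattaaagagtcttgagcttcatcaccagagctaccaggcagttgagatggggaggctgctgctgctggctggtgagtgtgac
Promoters were at hand for 8 of the 10 genes, Cd14 and Defb1 being without one. AGGTCA was found on either strand in 4 of the 8, namely Ovgp1, Lyz1, C3 and Prap1, against 16.3% of all promoters. TAATTG, the core of Msx homeobox sites, was found in Defb6 and Lcn2, against 8% of all promoters. In Defb6 it starts 93 bases upstream and overlaps the end of one of the shared stretches, and it was also found in Defb3 and Defb46. TATAAA, the TATA box letters, was found in C3 alone, against 13.6% of all promoters. In C3 it starts 14 bases after the gene start. Exact letters only were searched, so near variants were not counted. A match of letters is a description and not a binding site.

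Markers of other cell types were read beside Ovgp1. Of 7 oviduct or ciliated cell markers in the table, Pax8 was at 9.85 RPKM in luminal epithelium labelled knockout and 7.95 RPKM in control, and Pax2 at 1.18 and 1.28 RPKM. Both transcription factors are also made in other epithelia of Müllerian origin. Of the ciliated cell markers, Foxj1 was at 0.00941 RPKM in luminal epithelium labelled knockout and listed at 0 in control. Tekt1 was at 0.0158 RPKM and listed at 0 in the same order, and Dynlrb2 was listed at 0 in both. Rsph1 was listed at 0 in luminal epithelium labelled knockout and was at 0.144 RPKM in control. Ccdc39 was at 0.259 and 0.401 RPKM there, and at 0.472 and 0.529 RPKM in stroma. The 7 markers summed to 11.3 and 9.78 RPKM. Of 9 glandular markers, 5 were above 0 in each luminal epithelium library. The sum was 6.03 RPKM in luminal epithelium labelled knockout and 1.64 RPKM in control, of which Aldh1a1 held 4.86 and 0.789 RPKM. Lif was at 0.766 and 0.130 RPKM, and Cxcl15 at 0.261 and 0.182 RPKM. The gland factor Foxa2 was at 0.0312 and 0.0881 RPKM, and Sox9 at 0.118 and 0.448 RPKM. Spink3, Prss28, Prss29 and Ttr were listed at 0 in both. The part of glandular cells in the Ovgp1 difference was not tested.

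Prap1 (chr7:147279295-147283102, mm9), a secreted protein of uterine epithelium, was at 4.83 RPKM in luminal epithelium labelled knockout and 4.12 RPKM in control. The ratio of 1.17 had counting limits of 0.639 and 2.39, and its log2 difference of 0.19 became -0.01 when libraries were scaled without their 50 most abundant genes. In stroma Prap1 was listed at 0 in the library labelled knockout and was at 0.0513 RPKM in control, which is about 1 read.

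Lyz1 (chr10:116724851-116729924, mm9) differed in opposite directions in the 2 compartments. In luminal epithelium it was at 6.28 RPKM in the library labelled knockout and 1.48 RPKM in control, with a ratio of 4.24 (counting limits 2.29 and 8.88), on 605 and 9.98 estimated reads. In stroma it was at 2.94 RPKM in the library labelled knockout and 5.26 RPKM in control, a ratio of 0.558 with limits of 0.459 and 0.676.

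Its near copy Lyz2 (chr10:116714597-116719328, mm9), the lysozyme of macrophages, lies next to it. Lyz2 was at 0.705 RPKM in luminal epithelium labelled knockout and 7.498 RPKM in control, and at 21.5 RPKM in stroma labelled knockout and 45.1 RPKM in stroma control. Lyz1 therefore made up 89.9% of the 2 lysozymes in luminal epithelium labelled knockout, against 16.5% in its control, 11.998% in stroma labelled knockout and 10.4% in stroma control. The 2 transcripts were identical over 96.0% of 1262 aligned bases, so reads can be assigned to the wrong copy, and both levels are uncertain. The first 120 coding bases (GENCODE vM21, minus strand) are shown with the 11 bases that differ in capitals.
Lyz1: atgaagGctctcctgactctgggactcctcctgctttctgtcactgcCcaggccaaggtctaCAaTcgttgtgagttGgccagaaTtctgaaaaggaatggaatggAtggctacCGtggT
Lyz2: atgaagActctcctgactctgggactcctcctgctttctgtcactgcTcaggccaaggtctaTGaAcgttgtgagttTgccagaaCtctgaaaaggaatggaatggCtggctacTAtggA
The longest run without a difference over the whole transcripts had 118 bases.

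**Figure D3:**
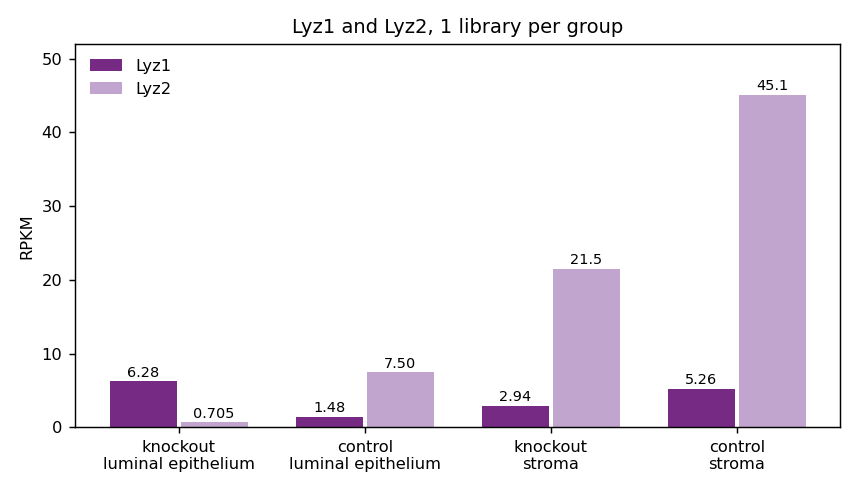
RPKM of Lyz1 and Lyz2 in each of the 4 libraries, 1 bar per gene and library. Lyz1 exceeds Lyz2 in luminal epithelium labelled knockout, at 6.28 against 0.705 RPKM, and lies below it in the other 3 libraries.

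Macrophage and monocyte markers were read beside the lysozymes. Without Lyz2, the 12 markers, none of which averaged 1 RPKM in luminal epithelium, summed to 1.27 RPKM in luminal epithelium labelled knockout and 5.13 RPKM in control, and 11 and 12 of them were above 0, with Fcgr1 the one listed at 0. Cd68, a lysosomal protein, held most of the first sum and was higher in the library labelled knockout, at 0.742 RPKM against 0.565 RPKM in control. C1qa was lower, at 0.0755 RPKM against 1.88 RPKM. In stroma they summed to 17.2 RPKM in the library labelled knockout and 33.1 RPKM in control. The summed stromal markers, given above, were also lower in luminal epithelium labelled knockout. The part of either cell type in the Lyz1 and Lyz2 levels was not tested. In bulk captures fewer cells of a type and less RNA per cell cannot be told apart.

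Lcn2 (chr2:32240157-32243259, mm9) was at 2.35 RPKM in luminal epithelium labelled knockout and 1.60 RPKM in control. The ratio of 1.47 had counting limits of 0.720 and 3.85, so a difference was not detectable at the depth of the control, which held 7.27 estimated reads of Lcn2. In stroma it was at 0.0715 RPKM in the library labelled knockout and listed at 0 in control. Neutrophils also make lipocalin-2. Of 10 neutrophil markers, S100a8, S100a9, Elane, Ngp and Retnlg were listed at 0 in both luminal epithelium libraries. The list summed to 1.24 RPKM in luminal epithelium labelled knockout and 1.10 RPKM in control, with 4 and 3 markers above 0, and most of it was Cxcr2, at 1.0019 and 0.892 RPKM.

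Cd14 (chr18:36884721-36886308, mm9), the coreceptor that hands lipopolysaccharide to Tlr4, was one of the more abundant members in both luminal epithelium libraries. It was at 32.0 RPKM in luminal epithelium labelled knockout and 24.8 RPKM in control, with a ratio of 1.29 (counting limits 1.13 and 1.48). Its log2 difference of 0.35 was 0.12 when libraries were scaled without their 50 most abundant genes. Its rank was 331 of all genes in luminal epithelium labelled knockout and 329 in control. In stroma it was at 0.326 RPKM in the library labelled knockout and 0.574 RPKM in control, a ratio of 0.569 with limits of 0.334 and 0.953.

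C3 (chr17:57343396-57367559, mm9), the central component of complement, was lower in both libraries labelled knockout. It was at 0.827 RPKM in luminal epithelium labelled knockout and 1.72 RPKM in control, 2.08-fold lower, with counting limits of 1.54 and 2.78 on that fold. On the log2 scale with 1 RPKM added the difference was -0.57, short of the 2-fold line. In stroma it was at 0.0753 RPKM in the library labelled knockout and 0.237 RPKM in control, on 23.2 and 49.9 estimated reads, 3.14-fold lower with limits of 1.91 and 5.46. Macrophages make C3 too, and the summed macrophage markers, given above, were lower in the same 2 libraries, as the summed stromal markers were in luminal epithelium. Their part in the C3 difference was not tested.

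Pigr (chr1:132723261-132748826, mm9) was at 2.92 RPKM in luminal epithelium labelled knockout and 3.69 RPKM in control. The ratio of 0.789 had counting limits of 0.629 and 0.990. In stroma it was at 0.00328 RPKM in the library labelled knockout, less than 1 estimated read, and 0.0977 RPKM in control, on 15.2 reads.

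**Figure D4:**
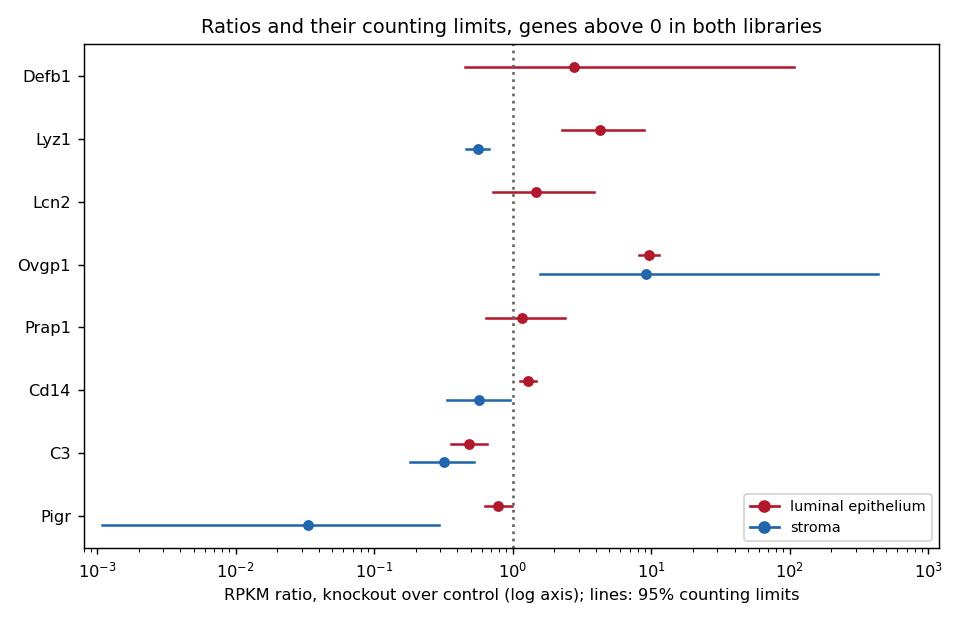
RPKM ratio of labelled knockout over control (log axis) with 95% exact binomial counting limits, in red for luminal epithelium and blue for stroma. Genes with a library at 0 have no point, and the limits of Defb1, Lcn2 and Prap1 in luminal epithelium span 1.

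Read together, 9 of the 10 genes averaged at least 1 RPKM in the luminal epithelium pair, Defb1 being the exception. Of these 9, 4 had a log2 difference of at least 1 with 1 RPKM added, namely Defb6 (5.92), Defb5 (3.89), Ovgp1 (3.14) and Lyz1 (1.55), and none was 2-fold lower. The values of Defb6 and Defb5 are set by the pseudocount, since control is listed at 0, and were 9.22 and 7.13 with 0.1 RPKM added. Over all 7736 genes kept, 5.03% passed the 2-fold line upward and 1.99% downward in luminal epithelium labelled knockout, so 71.6% of those past it were higher. With libraries scaled without their 50 most abundant genes that share was 57.2%, and the median of all genes shifted by -0.19. Since the genes were picked on this contrast, their count is not read against that share. The median of the 9 was 0.36, against 0.10 for all genes kept. In stroma, Lyz1 alone averaged 1 RPKM, and with 1 RPKM added it was not past 2-fold. The other members lay at 0.574 RPKM or below in both stroma libraries, too low to pass 2-fold with 1 RPKM added. Without it, ratios in stroma were 0.318 for C3, 0.0336 for Pigr and 9.23 for Ovgp1. Over all 7723 genes kept there, 1.45% were higher and 1.59% lower. None of the 10 was marked significant in the authors' deposited table for luminal epithelium, where 0.841% of the 11176 genes it tested were. In that for stroma, only Lyz1 and Cd14 among the 10 were tested. Neither was marked significant there, where 0.0409% of the genes tested were. The q-values in the authors' deposited table were 0.117 for Ovgp1, 0.240 for Defb6, 0.368 for Defb5 and 0.392 for Lyz1 in luminal epithelium. That test compares 2 libraries.

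**Figure D5:**
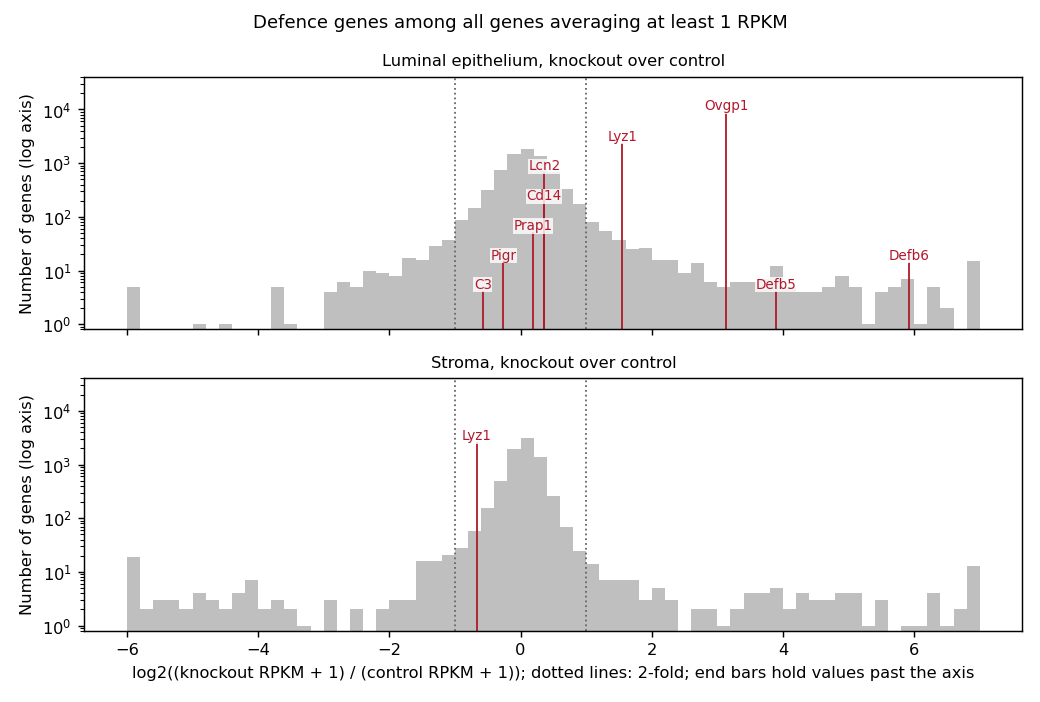
Number of genes (log axis) by log2 difference, labelled knockout over control with 1 RPKM added, among genes averaging at least 1 RPKM in luminal epithelium (above) and stroma (below). Red lines mark members, their height having no meaning. Defb6, Defb5, Ovgp1 and Lyz1 lie past the dotted 2-fold line in luminal epithelium, and Lyz1 lies at -0.67 in stroma.

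Levels were then set across the compartments, whose tables were normalized separately. Ovgp1 in stroma amounted to 0.113% of its luminal epithelium level in the libraries labelled knockout and 0.118% in the controls. Luminal epithelial markers at 5 RPKM or more gave medians of 0.181% and 0.241%, with ranges of 0% to 0.350% and 0.0260% to 0.933% that take in Ovgp1. Cd14 in stroma amounted to 1.02% of its luminal epithelium level in the libraries labelled knockout and 2.32% in the controls, and C3 to 9.10% and 13.8%. Lyz1 stood at 46.8% in the libraries labelled knockout and 355.5% in the controls.

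Genes with the most similar levels over the 4 libraries were found by Euclidean distance on log2(RPKM + 1). Nearest to Defb6 were Sprr2g (distance 1.42), Wfdc15b (1.68), Defb5 (2.02) and Ccdc129 (2.20). Nearest to Ovgp1 were Sprr2f (0.86), Ltf (1.14), Acbd7 (1.38) and Galm (1.55). Sprr2f and Sprr2g encode small proline-rich proteins and Ltf encodes lactotransferrin, an iron-binding defence protein. Wfdc15b, which belongs to a family of secreted protease inhibitors, was at 22.4 RPKM in luminal epithelium labelled knockout and 0.956 RPKM in control. Nearest to Lyz1 were Abcc5 (0.65), Ivd (0.67), B9d1 (0.73) and Lbr (0.74), all between 1.60 and 4.90 RPKM in the 4 libraries.

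Other defence genes were read from lists written with earlier results known, which share some members with the 10. Their counts stand beside 5.03% higher and 1.99% lower of all genes kept in luminal epithelium, with a median of 0.10, and 1.45% and 1.59% in stroma, with a median of 0.07. Of 24 secreted antimicrobial genes other than defensins, Lyz1 and Lcn2 included, 7 were kept in luminal epithelium. Of these, 3 were at least 2-fold higher, Wfdc15b, Ltf and Lyz1, and Lyz2 was at least 2-fold lower. Lyz1 belongs to the genes picked on this contrast, and Wfdc15b passed the minimum through the library labelled knockout alone. Nothing is therefore read from the count. Wfdc2, the most abundant of the list and named after its values were seen, was at 166.5 RPKM in luminal epithelium labelled knockout and 169.9 RPKM in control. Ltf was at 41.8 RPKM in luminal epithelium labelled knockout and 11.1 RPKM in control, a ratio of 3.76 with limits of 3.25 and 4.39. The list's median was 0.36. In stroma 6 were kept with a median of -0.72, and Lyz2 was the one past 2-fold, lower. There the galectin gene Lgals3 was at 0.783 RPKM in the library labelled knockout and 2.51 RPKM in control, and Pglyrp1, which binds bacterial peptidoglycan, was at 0.552 and 1.65 RPKM.

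The list of secreted products of uterine or oviduct epithelium had 9 of 19 members kept in luminal epithelium, with 5 past the 2-fold line upward (Ovgp1, Spp1, Ltf, Lifr and Clu), none downward and a median of 1.34, against 5.03%, 1.99% and 0.10 over all genes kept. Ovgp1 belongs to the genes picked on this contrast, and Lifr is a receptor and not a secreted product. Spp1 passed the minimum through the library labelled knockout alone. The list was also written with earlier results known, so nothing is read from its count or median. Spp1, which encodes osteopontin, was at 3.06 RPKM in luminal epithelium labelled knockout and 0.117 RPKM in control, and Lifr, which binds leukaemia inhibitory factor, at 6.18 and 1.68 RPKM. In stroma 5 were kept, none past 2-fold, with a median of -0.044. The complement list had 10 of 21 kept, with a median of -0.06. Clu, an extracellular chaperone that inhibits complement, was 3.13-fold higher, at 7.94 RPKM in luminal epithelium labelled knockout and 2.53 RPKM in control. Complement C2 was 4.89-fold lower, at 0.984 and 4.82 RPKM, and the membrane regulator Cd55 was 2.78-fold lower, at 3.69 and 10.3 RPKM. Serping1, the C1 inhibitor, was at 10.3 and 21.0 RPKM. In stroma 10 complement genes were kept, 9 of them below 0, with a median of -0.33 and none past 2-fold. The largest differences were those of the macrophage genes C1qc, at 3.36 RPKM in stroma labelled knockout and 7.32 RPKM in control, C1qb and C1qa.

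Among genes that sense bacterial products, 10 of 19 were kept in luminal epithelium, with a median of 0.14. Lbp, the secreted protein that delivers lipopolysaccharide to Cd14, was at 33.9 RPKM in luminal epithelium labelled knockout and 9.82 RPKM in control, a ratio of 3.46 with limits of 2.93 and 4.10. Nod1, an intracellular sensor of peptidoglycan, was 8.54-fold lower, at 0.517 and 4.42 RPKM. Tlr2 was at 1.51 and 0.795 RPKM. In stroma 4 were kept, none past 2-fold, with a median of -0.20. The NF-kappaB list had 11 of 22 kept in luminal epithelium, with a median of 0.05. Nfkbia, its feedback inhibitor, was 3.21-fold higher, at 42.3 and 13.2 RPKM, and Csf3 was at 4.25 and 0.836 RPKM. Rel, a subunit of the factor, was at 2.10 RPKM in luminal epithelium labelled knockout and 4.53 RPKM in control, and the cytokine Il6 at 1.88 and 0.528 RPKM. In stroma 5 were kept with a median of 0.04 and none past 2-fold. Of 5 immunoglobulin transport genes in the table, Pigr alone was kept in luminal epithelium. In stroma Igj, the joining chain of IgA and IgM that Pigr binds and a product of plasma cells, was at 54.2 RPKM in the library labelled knockout and 34.4 RPKM in control, a ratio of 1.57 with limits of 1.49 and 1.67.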

How the data were processed

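Build mm9 and the tools Cufflinks 2.0.2, TopHat2 2.0.5, TopHat and CASAVA 1.8.2 are named, per the submitters' processing notes, with settings, filters and use of strand not given in the sources used here. Per the labels' protocols, RNA from laser-captured cells was made into stranded total RNA libraries after ribosomal depletion. The authors deposited RPKM for each library in 1 table per compartment, together with a p-value, a q-value and a log2 fold change of their own, per the file headers. RPKM had been computed by the authors within each table. The deposited q-value compares 1 library with 1.

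From there, log2((knockout + 1)/(control + 1)) was taken with a pseudocount of 1 RPKM, which understates differences of low genes. Genes averaging at least 1 RPKM over a pair were kept, and a log2 difference of 1 was the 2-fold line. Ratios of single genes carry no pseudocount. No p-value was computed. The 10 genes, the lists and the naming rule were chosen with earlier results of these data known. The rule named the 10 genes, Lyz2, Msx1 and Msx2, the markers, up to 4 kept members of each defence list with the largest differences, and the 4 nearest genes of Defb6, Ovgp1 and Lyz1.

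Reads were estimated from the step between low RPKM values times transcript length less 200 bases. Lengths came from GENCODE vM21 transcripts matched by RefSeq identifier. Limits are 95% Clopper-Pearson limits on the estimated reads, cover counting error only, and were not used for genes listed at 0. Coordinates are mm9 as deposited with starts raised by 1, since 7152 of 20601 loci matched a gene length in the annotation when counted from 0, against 452 from 1. Promoters are RefSeq, GRCm38.p6. The steps were tested on simulated data. Versions were scipy 1.17.1, pandas 2.3.3, numpy 2.4.6, matplotlib 3.10.9 and Python 3.11.15.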

Additional observations from a re-analysis of the deposited data

Results flagged for a closer look

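Lyz1 was set apart because its ratio of labelled knockout over control lay above 1 in luminal epithelium, at 4.24, and below 1 in stroma, at 0.558, with counting limits that left out 1 in both. Cd14 was set apart in the same way, at 1.29 in luminal epithelium and 0.569 in stroma. When libraries were scaled without their 50 most abundant genes, the log2 difference of Cd14 in luminal epithelium was 0.12 in place of 0.35. The difference between the compartments was not tested, since each compartment has 1 library per label.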

How the results depend on the processing

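The count of genes at least 2-fold higher in luminal epithelium was 4 under 5 of the 6 alternatives and 3 at a minimum of 5 RPKM, where Lyz1 was no longer kept. The counts of 0 lower there and of 0 past 2-fold in stroma did not change, but no member was left in stroma at a minimum of 5 RPKM. The stroma count rests on Lyz1 alone, since the other members there are too low to pass the line with 1 RPKM added. The median log2 difference in luminal epithelium, 0.36, was 0.52 with a pseudocount of 0.1 RPKM, 0.20 with libraries scaled without their 50 most abundant genes and 3.52 over the 4 members that average 5 RPKM. The median in stroma, -0.67 on Lyz1 alone, was -0.82 with a pseudocount of 0.1 RPKM and -0.036 over all 10 with no minimum. Scaling without the 50 most abundant genes moved the median of all genes kept in luminal epithelium by -0.19 and gave 312 higher and 233 lower genes, against 389 and 154, so higher genes were 57.2% in place of 71.6% of those past 2-fold. No minimum gave 424 and 189, a pseudocount of 0.1 RPKM gave 640 and 279, and a minimum of 5 RPKM gave 204 and 62. Of 80 log2 differences of single members under other pseudocounts and scalings, 78 kept their side of the 2-fold line and their sign, counting the 3 defensins of stroma, which are at 0 throughout. Defb6 and Defb5, with control at 0, were 9.22 and 7.13 with a pseudocount of 0.1 RPKM, against 5.92 and 3.89. Defb1 in luminal epithelium was 1.16 with a pseudocount of 0.1 RPKM, against 0.41, and Prap1 was -0.01 with the 50 most abundant genes left out. An alternative chosen after seeing the data took the full transcript length for the reads, which put the control reads expected at the labelled knockout level at 112 in place of 46.4 for Defb6 and at 16.7 in place of 0.616 for Defb5. No paired analysis was possible because each group has 1 library. The depth of the luminal epithelium control, 6.35 M reads, limits what can be said of the low members there.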
